A study of Mus musculus with 8 samples.

Results

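The genes described here encode the aminoacyl-tRNA synthetases and a few proteins that work beside them, read in mouse hearts with extra FASTKD1, an RNA-binding protein of the mitochondria. They were chosen by name: 20 genes of cytosolic synthetases, 16 genes of mitochondrial synthetases, the scaffold factor genes Aimp1 and Aimp2, and Xpot, which encodes the export receptor of tRNA. All 39 were among the 13227 genes of the deposited counts, and all 39 passed the filter on low counts, which left 13226 genes for testing. Per the labels, all hearts came from male FVB/N mice at 3 months of age, 4 of them non-transgenic (lettered A, B, D, E) and 4 FASTKD1 transgenic (lettered A, B, C, E). The series title calls the overexpression cardiac-specific, while the promoter of the transgene and the number of founder lines are not given in the sources used here. Libraries were made from 1 homogenised heart each, so that fewer cells of a type and less RNA per cell cannot be told apart.

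An aminoacyl-tRNA synthetase joins an amino acid to the tRNA that carries its anticodon, and the ribosome reads the charged tRNA without checking the amino acid again. Mammalian cells keep separate sets of these enzymes for the cytosol and for the mitochondrial matrix, nearly all encoded by different nuclear genes. The glycine and lysine enzymes are exceptions, since 1 gene each, Gars and Kars, supplies both compartments. In the cytosol several of the enzymes are bound in the multisynthetase complex on the scaffold proteins AIMP1, AIMP2 and EEF1E1, and the rest act free of it. Cytosolic synthetase genes are known as targets of ATF4, a transcription factor that is made more when uncharged tRNA or mitochondrial stress activates the kinases of eIF2alpha.

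Total counts ran from 45802079 to 50830215 in the non-transgenic and from 44584359 to 55769859 in the transgenic libraries. Levels are given as CPM, a gene's share of its library on the usual fixed scale, adjusted by the trimmed mean of M-values, which corrects for a few abundant genes taking a different share of a library. Fastkd1, the overexpressed gene (ENSMUSG00000027086), stood at 26.3, 30.2, 192 and 33.8 CPM in the non-transgenic hearts, in the order A, B, D, E, and at 10026, 9341, 8845 and 11516 CPM in the transgenic hearts, in the order A, B, C, E. The transgenic hearts were all higher, by 7.14 on the log2 scale (SE 0.75, adjusted p = 0.000684, edgeR), with an exact two-sided permutation p of 0.0286, the smallest that 70 arrangements can give. Without the library labelled non-transgenic D the log2 fold change of Fastkd1 was 8.36. The library labelled non-transgenic D had more Fastkd1 than the other 3 of its group, and although its label says male it held 0 counts of Uty, Kdm5d, Eif2s3y and Ddx3y, which lie on the Y chromosome, against 10372 to 15914 in the other 7 libraries. Atrial markers (Myl4, Myl7, Sln and Nppa, summed) reached 2988 CPM in transgenic heart A and 572 CPM in the library labelled non-transgenic D, against 16.2 to 241 CPM in the other 6. Counts of genes that rose are also given without both libraries. Without both, all transgenic hearts were higher in 14 of the 17 pairs of a cytosolic and a mitochondrial counterpart, against 13 with all libraries. That count cannot fall when libraries are left out, so it does not show that the separation holds without them. The summed CPM of the cytosolic synthetases differed by 0.63 on the log2 scale without both, against 0.64 with all libraries.

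Of the 39 genes, 10 rose in transgenic hearts, 0 fell and 29 did not pass the test, which was edgeR's quasi-likelihood test, two-sided, with Benjamini-Hochberg adjustment over the 13226 genes and a threshold of 0.05. Over all tested genes 133 rose, or 1.01%, and 32 fell, or 0.242%. DESeq2 called 11 of the 39 as higher, where it called 1.89% of all genes it tested, and limma-voom called 10, where it called 1.02%. Both called 0 of the 39 as lower. At an unadjusted p under 0.05 by edgeR, 12 of the 39 were higher and 0 lower, against 5.37% and 5.38% of all tested genes. The 10 that rose were 9 of the 20 cytosolic synthetase genes (45.0%) and Xpot. None of the 16 mitochondrial synthetase genes and neither scaffold factor gene passed the test in either direction. Without the library labelled non-transgenic D and transgenic heart A, 10 of the 39 genes again rose.

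**Figure D1:**
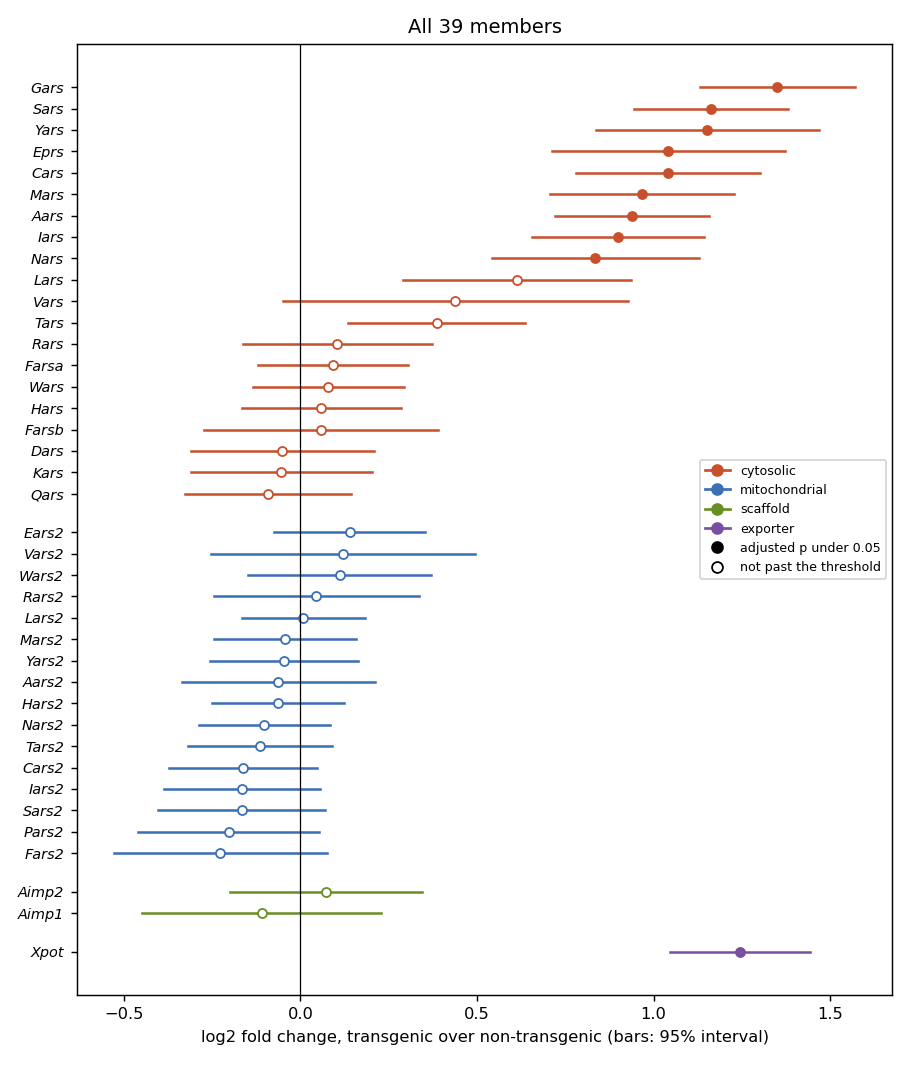
Log2 fold change of transgenic over non-transgenic hearts (x axis) for each of the 39 genes (y axis), grouped into cytosolic synthetases, mitochondrial synthetases, scaffold factors and Xpot, with bars for the 95% interval of edgeR's fit and filled points for genes past the threshold. The 9 cytosolic genes that rose and Xpot lie between 0.83 and 1.35, while the 16 mitochondrial genes lie between -0.23 and 0.14.

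Glycine, serine, tyrosine, glutamate with proline, and cysteine were the amino acids whose cytosolic enzyme genes rose by more than 1 on the log2 scale. Gars, which encodes glycyl-tRNA synthetase of both compartments (ENSMUSG00000029777, chr6:55038007-55079500, plus strand; coordinates are on GRCm38 throughout), stood at 68.8, 66.1, 60.7 and 62.3 CPM in the non-transgenic and at 140.4, 178, 175 and 164 CPM in the transgenic hearts. The lowest transgenic heart lay far above the highest non-transgenic one, and the mean went from 64.5 ± 3.66 to 164 ± 17.2 CPM (SD, n = 4 each). The log2 fold change of 1.35 (SE 0.10) corresponded to 2.55-fold (95% interval 2.19 to 2.97, adjusted p = 4.25e-05, edgeR), the largest of the 36 synthetase genes.

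Sars encodes seryl-tRNA synthetase (ENSMUSG00000068739, chr3:108424865-108445209, minus strand), the enzyme that also puts serine on the tRNA of selenocysteine. Its level was 65.4, 66.5, 55.7 and 58.1 CPM in non-transgenic and 121, 148, 138 and 142 CPM in transgenic hearts, with the hearts in the same order of letters as above, and in what follows non-transgenic values come first. It rose by 1.16 (SE 0.10) on the log2 scale (adjusted p = 0.000147, edgeR). Yars, which encodes tyrosyl-tRNA synthetase (ENSMUSG00000028811, chr4:129189760-129219607, plus strand), had 23.6, 18.4, 24.2 and 25.4 CPM and 39.05, 55.1, 54.7 and 54.8 CPM. Its groups were well apart, with transgenic heart A below the other 3 transgenic hearts, and the rise was 1.15 (SE 0.14, adjusted p = 0.00193, edgeR).

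Eprs encodes a single protein that carries both glutamyl- and prolyl-tRNA synthetase (ENSMUSG00000026615, chr1:185363044-185428360, plus strand) and was the most abundant of the 39 genes by CPM in non-transgenic hearts. It had 150.5, 196, 120.1 and 129 CPM in the non-transgenic and 292, 331, 301 and 301 CPM in the transgenic hearts. Non-transgenic heart B was the highest of its group here, so that the spread was wide (mean 149 ± 34.01 CPM, SD, n = 4) and narrower among transgenic hearts (306 ± 16.9 CPM). The rise was 1.04 (SE 0.15, adjusted p = 0.00517, edgeR). Cars, the gene of cysteinyl-tRNA synthetase (ENSMUSG00000010755, chr7:143557230-143600090, minus strand) and the lowest of the 20 cytosolic genes by CPM in non-transgenic hearts, had 18.7, 16.4, 17.1 and 16.3 CPM and 28.01, 36.9, 36.4 and 39.5 CPM. It rose by 1.04 (SE 0.12, adjusted p = 0.000998, edgeR).

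The other 4 cytosolic genes that rose serve methionine, alanine, isoleucine and asparagine. Mars, which encodes methionyl-tRNA synthetase and so serves both the start and the elongation of proteins (ENSMUSG00000040354, chr10:127296221-127311786, minus strand), had 44.9, 34.8, 38.5 and 41.4 CPM in non-transgenic and 64.1, 85.8, 77.9 and 83.9 CPM in transgenic hearts. It rose by 0.97 (SE 0.12, adjusted p = 0.00174, edgeR). Mars shares 68 exon bases, 1.99% of its own, with Ddit3 on the opposite strand. Ddit3, the gene of the stress factor CHOP, itself rose from 17.8 ± 2.52 to 33.7 ± 2.47 CPM (SD, n = 4 each, adjusted p = 0.00233, edgeR), and since the strand of the libraries was not given, reads from the shared bases cannot be told apart.

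Alanyl-tRNA synthetase is encoded by Aars (ENSMUSG00000031960, chr8:111033144-111057664, plus strand), which had 81.3, 70.2, 66.6 and 67.8 CPM in non-transgenic and 122, 146, 142 and 138 CPM in transgenic hearts, a rise of 0.94 (SE 0.10, adjusted p = 0.000630, edgeR). Of its exon bases 14.3% are shared with Exosc6 on the same strand, a gene not analysed here. Reads from those bases cannot be told apart, even if the libraries keep the strand. Isoleucyl-tRNA synthetase is encoded by Iars (ENSMUSG00000037851, chr13:49682100-49734267, plus strand). Its 4 non-transgenic hearts lay close together at 68.9, 77.04, 76.1 and 75.8 CPM, the 4 transgenic hearts at 113, 137, 153 and 152 CPM, and it rose by 0.90 (SE 0.11, adjusted p = 0.00182, edgeR).

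Nars, which encodes asparaginyl-tRNA synthetase (ENSMUSG00000024587, chromosome 18, minus strand), had 104, 134, 86.7 and 95.7 CPM in non-transgenic and 174, 199, 184 and 192 CPM in transgenic hearts. Its groups did not overlap, and it rose by 0.83 (SE 0.13, adjusted p = 0.00975, edgeR), the smallest rise of the 10. The call of Nars was lost by leaving out non-transgenic heart A (adjusted p = 0.0511, edgeR) or transgenic heart B (0.0547).

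Xpot encodes exportin-T, which carries mature tRNA from the nucleus to the cytosol (ENSMUSG00000034667, chr10:121587380-121626332, minus strand). Its non-transgenic hearts lay close together at 35.3, 34.9, 34.1 and 36.9 CPM, and its transgenic hearts stood at 72.9, 90.03, 82.7 and 88.9 CPM. The rise was 1.24 (SE 0.09), or 2.37-fold (95% interval 2.06 to 2.72), with the smallest adjusted p of the 39 genes (3.73e-05, edgeR).

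**Figure D2:**
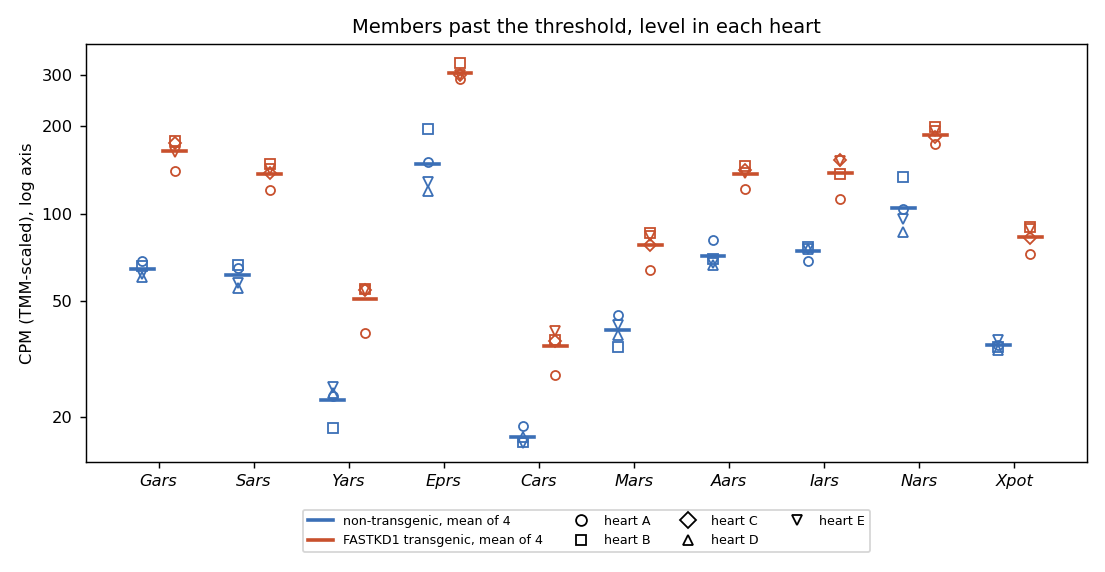
CPM in each of the 8 hearts (y axis, logarithmic) for the 9 cytosolic synthetase genes that rose and Xpot (x axis), non-transgenic hearts in blue and transgenic hearts in red, with a marker shape for each heart letter and a line at each group mean. In all 10 genes every transgenic heart lies above every non-transgenic heart, and transgenic heart A is the lowest of its group.

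Transgenic heart A had the lowest level of the 4 transgenic hearts in all 10 genes. Its ratio to the non-transgenic mean had a median of 1.70 over the 10 genes (range 1.51 to 2.18), against medians of 2.19 in heart B, 2.09 in heart C and 2.20 in heart E. This is the heart with 2988 CPM of atrial markers, and the part of that tissue in its lower ratios was not tested. The library labelled non-transgenic D was the lowest of the non-transgenic hearts in 6 of the 10 genes. Over the 18 alternative settings tried, Gars, Sars, Yars, Eprs, Cars, Aars, Iars and Xpot stayed past the threshold in each, Mars in 17 and Nars in 15.

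The rises can be set beside the sequences at the starts of these genes. RefSeq promoter windows (GRCm38.p6, 250 bases before to 50 after the start) were at hand for 30 of the 39 genes, 13 of them cytosolic, 14 mitochondrial, and those of Aimp1, Aimp2 and Xpot. They were searched on both strands for TGATGNAA, the core of the C/EBP-ATF response element through which ATF4 is known to act. It was found in 5 of the 13 cytosolic windows, those of Gars, Aars, Iars, Yars and Tars, and in 0 of 14 mitochondrial windows, against 1304 of 32851 windows of the table (3.97%). Of the 7 cytosolic genes that rose and had a window, 4 held the match. Of the 6 that did not pass the test and had one, 1 held it. Windows were placed by RefSeq starts, which differ from GENCODE starts in some genes. The window of Tars2 (chr3:95754928-95755227), for example, lies wholly inside the gene as GENCODE places it (chr3:95739976-95760206), and so do those of Aars and Qars. Cytosolic and mitochondrial windows were thus not all placed alike against the GENCODE start.

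The windows below run from 170 bases before to 30 after the start, 5′ to 3′ on the gene's strand, and show where the match lies in each of the 5 genes, with Sars and Xpot as genes that rose without one. Capitals mark the bases of a match, which reads TTTCATCA or TTGCATCA where it lies on the opposite strand, as in all but Yars.
Gars, chr6:55037831-55038030, plus strand: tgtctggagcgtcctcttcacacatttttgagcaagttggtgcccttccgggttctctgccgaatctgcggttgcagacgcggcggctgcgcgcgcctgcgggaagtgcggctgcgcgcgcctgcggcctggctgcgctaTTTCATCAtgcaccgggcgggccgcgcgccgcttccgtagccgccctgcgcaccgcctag
Aars, chr8:111033672-111033871, plus strand: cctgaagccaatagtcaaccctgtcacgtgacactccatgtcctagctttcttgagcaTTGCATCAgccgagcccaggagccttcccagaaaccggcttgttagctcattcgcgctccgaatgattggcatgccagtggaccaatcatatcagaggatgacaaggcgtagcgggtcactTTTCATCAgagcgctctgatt
Iars, chr13:49681960-49682159, plus strand: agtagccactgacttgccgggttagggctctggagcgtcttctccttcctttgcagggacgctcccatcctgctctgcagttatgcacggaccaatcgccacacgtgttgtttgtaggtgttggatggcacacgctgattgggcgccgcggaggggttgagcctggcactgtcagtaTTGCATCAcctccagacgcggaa
Yars, chr4:129189733-129189932, plus strand: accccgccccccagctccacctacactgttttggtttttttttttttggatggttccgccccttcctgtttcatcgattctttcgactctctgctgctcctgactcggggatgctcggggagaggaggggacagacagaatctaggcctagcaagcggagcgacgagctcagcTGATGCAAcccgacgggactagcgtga
Tars, chr15:11399629-11399828, minus strand: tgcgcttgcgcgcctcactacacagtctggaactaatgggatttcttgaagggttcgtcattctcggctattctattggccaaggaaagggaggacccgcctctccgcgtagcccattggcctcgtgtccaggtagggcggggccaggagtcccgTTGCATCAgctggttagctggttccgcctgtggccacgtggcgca
Sars, chr3:108445230-108445429, minus strand: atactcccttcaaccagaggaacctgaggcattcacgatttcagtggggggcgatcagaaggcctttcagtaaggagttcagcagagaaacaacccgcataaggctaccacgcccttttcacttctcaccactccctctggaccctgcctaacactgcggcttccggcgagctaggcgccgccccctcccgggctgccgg
Xpot, chr10:121626303-121626502, minus strand: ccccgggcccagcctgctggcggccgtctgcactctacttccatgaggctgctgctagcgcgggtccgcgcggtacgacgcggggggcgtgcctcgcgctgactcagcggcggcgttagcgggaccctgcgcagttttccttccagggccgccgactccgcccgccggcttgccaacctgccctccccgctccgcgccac

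In Gars the match starts 30 bases before the RefSeq start, in Tars 15 bases before, in Iars 7 bases after it and in Yars 3 bases after it. Aars holds a match 112 bases before the start and another 9 bases after it. The Yars match is TGATGCAA itself on the gene's strand, and Iars, Tars and the upstream site of Aars hold the same letters on the opposite strand, a form present in 294 of all windows (0.895%). By its GENCODE start, which lies upstream of the RefSeq start used for the match, Yars begins 33 bases from S100pbp. The distances to the match and to S100pbp are thus counted from different starts. S100pbp runs the other way and stood at 13.2 ± 1.95 CPM in non-transgenic and 13.6 ± 0.583 CPM in transgenic hearts (SD, n = 4 each, log2 fold change 0.04, adjusted p = 0.941, edgeR). A match of these letters describes the window and does not show a bound site, and no match says only that the letters are absent from that window.

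Atf4 itself (ENSMUSG00000042406, chr15:80255184-80257541, plus strand) had 64.5, 61.02, 66.2 and 71.9 CPM in non-transgenic and 128, 169.6, 165 and 183 CPM in transgenic hearts. Its groups did not overlap and transgenic heart A was again the lowest of the transgenic hearts (adjusted p = 0.000265, edgeR). Eif2ak4, which encodes GCN2, the eIF2alpha kinase that senses uncharged tRNA, had 7.88 ± 1.31 CPM in non-transgenic and 8.42 ± 0.741 CPM in transgenic hearts (SD, n = 4 each), and its log2 fold change of 0.09 did not pass the test (adjusted p = 0.873, edgeR).

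The other 11 cytosolic genes did not pass the test. Lars, the gene of leucyl-tRNA synthetase, which is also known as a leucine sensor of mTORC1, came nearest. It had 94.2, 123, 78.01 and 79.1 CPM in non-transgenic and 134, 152, 139 and 148 CPM in transgenic hearts, groups that did not overlap, and a log2 fold change of 0.61 (SE 0.14, adjusted p = 0.0922, edgeR). DESeq2 called it (adjusted p = 0.00455), and so did edgeR on library totals (0.00825) and without non-transgenic heart B (0.00377), the highest of its group.

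Tars, which encodes threonyl-tRNA synthetase and holds the promoter match above, had 68.8, 79.8, 57.7 and 57.7 CPM and 85.4, 89.8, 82.9 and 86.8 CPM. Its groups did not overlap either, at a log2 fold change of 0.39 (SE 0.11, adjusted p = 0.205, edgeR), and it passed the threshold on library totals (0.0143) and without non-transgenic heart B (0.0210). Vars, the gene of valyl-tRNA synthetase, had 22.8, 10.9, 21.1 and 20.5 CPM and 18.9, 27.8, 27.5 and 27.7 CPM, with non-transgenic heart B and transgenic heart A each far below the rest of their group. Its log2 fold change was 0.44 (SE 0.22, adjusted p = 0.531, edgeR).

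The remaining 8, Rars, Farsa, Wars, Hars, Farsb, Dars, Kars and Qars, had log2 fold changes between -0.09 and 0.10 with adjusted p of at least 0.811, Kars and Dars turning from below to above 0 on library totals. They serve arginine, phenylalanine (whose enzyme is built of the products of Farsa and Farsb), tryptophan, histidine, aspartate, lysine and glutamine. The 95% intervals of these 8 ran from 0.798-fold to 1.31-fold, which leaves out a rise of the size seen in any of the 9 genes above. Kars is a plain example, with 107, 133, 91.2 and 101 CPM in non-transgenic and 103, 105, 101 and 107 CPM in transgenic hearts. Dars had 86.96, 112, 76.96 and 82.5 CPM and 88.4, 87.3, 87.5 and 82.96 CPM. In both genes the transgenic hearts lay within the range of the non-transgenic ones.

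Grouped by where the enzymes reside, the 8 genes of the multisynthetase complex held 3 that rose (Eprs, Iars and Mars) and 5 that did not pass the test, with a median log2 fold change of 0.36. The 12 genes of free enzymes held 6 that rose, with a median of 0.64. By catalytic fold, 4 of 9 class I genes rose (Cars, Iars, Mars and Yars) and 4 of 10 class II genes (Gars, Sars, Aars and Nars), with medians of 0.61 and 0.24, while Eprs carries a domain of each class. The median over all 13226 tested genes was 0.0057. Each of these groups held genes that rose and genes that did not pass the test, and no difference between the groups was tested. The scaffold factor genes did not pass the test, Aimp1 at 60.3, 68.8, 42.7 and 44.4 CPM and 52.2, 54.2, 46.5 and 47.3 CPM (adjusted p = 0.863) and Aimp2 at 11.2, 10.3, 10.2 and 10.7 CPM and 8.60, 12.1, 12.1 and 11.8 CPM (adjusted p = 0.894, edgeR). Of the exon bases of Aimp2, 29.4% lie opposite Eif2ak1, another eIF2alpha kinase gene, whose log2 fold change was 0.06 (adjusted p = 0.843, edgeR).

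None of the 16 mitochondrial synthetase genes passed the test. Their log2 fold changes lay between -0.23 and 0.14 with a median of -0.06. They lay above 0 in 5 of the 16, where 51.2% of all tested genes did. Yars2, Hars2, Mars2 and Aars2 turned to above 0 on library totals. On that scale 9 of the 16 lay above 0, where 67.3% of all tested genes did. Adjusted p ran from 0.603 to 0.985 (edgeR). None reached an unadjusted p of 0.05, where 10.7% of all tested genes did, and DESeq2 and limma-voom called 0 of the 16 as well. Their 95% intervals lay between 0.693-fold and 1.41-fold, and 0 of the 16 passed in either direction under any alternative tried (smallest adjusted p 0.152, for Fars2 without the library labelled non-transgenic D and transgenic heart A).

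Pars2, the gene of mitochondrial prolyl-tRNA synthetase, was the lowest of the 39 genes by CPM in non-transgenic hearts and had the smallest p of the 16. It stood at 6.25, 6.35, 5.40 and 5.65 CPM in non-transgenic and 5.70, 4.72, 5.28 and 4.84 CPM in transgenic hearts, groups that overlapped, with a log2 fold change of -0.20 (SE 0.12, adjusted p = 0.603, edgeR). Cars2, for cysteine, came next at 28.4, 24.1, 30.01 and 26.7 CPM and 22.996, 26.1, 23.96 and 24.5 CPM (log2 fold change -0.16, adjusted p = 0.612, edgeR), with transgenic heart B above non-transgenic heart B. Iars2, for isoleucine and the most abundant of the 16 by CPM, had 148, 151, 115 and 132 CPM and 128, 119, 119.7 and 121 CPM (log2 fold change -0.17, adjusted p = 0.633, edgeR). Non-transgenic hearts A and B were the highest and the library labelled non-transgenic D the lowest of all 8. Of the exon bases of Iars2, 22.9% lie opposite Rab3gap2, whose log2 fold change was 0.06 (adjusted p = 0.872, edgeR).

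Fars2, for phenylalanine, had the lowest log2 fold change of the 16, at -0.23 (SE 0.14, adjusted p = 0.629, edgeR), and overlapping groups of 63.2, 72.4, 44.97 and 58.01 CPM and 55.6, 51.9, 49.8 and 46.6 CPM. Sars2, for serine, stood at 13.1, 10.8, 11.95 and 12.8 CPM in non-transgenic and 9.92, 10.996, 12.2 and 10.2 CPM in transgenic hearts (log2 fold change -0.17, adjusted p = 0.659, edgeR). Yars2, for tyrosine, had 25.1, 23.8, 22.5 and 24.2 CPM and 23.5, 24.4, 24.4 and 19.98 CPM. In all 3 of these genes the groups overlapped.

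The levels of Aars2, for alanine, were 27.9, 20.2, 24.8 and 27.03 CPM and 20.5, 26.5, 24.5 and 24.2 CPM. Those of Mars2, for methionine, were 17.02, 17.5, 19.1 and 19.6 CPM and 17.1, 17.5, 19.2 and 17.3 CPM. Nars2, for asparagine, stood at 15.6, 16.5, 14.9 and 16.03 CPM and 14.5, 15.2, 15 and 14.01 CPM. Groups overlapped in these genes too. Ears2, for glutamate, had the highest log2 fold change of the 16, 0.14 (SE 0.10, adjusted p = 0.690, edgeR), from 14.6, 13.5, 12.6 and 13.5 CPM to 13.4, 15.4, 14.9 and 16.1 CPM, with overlapping groups.

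**Figure D3:**
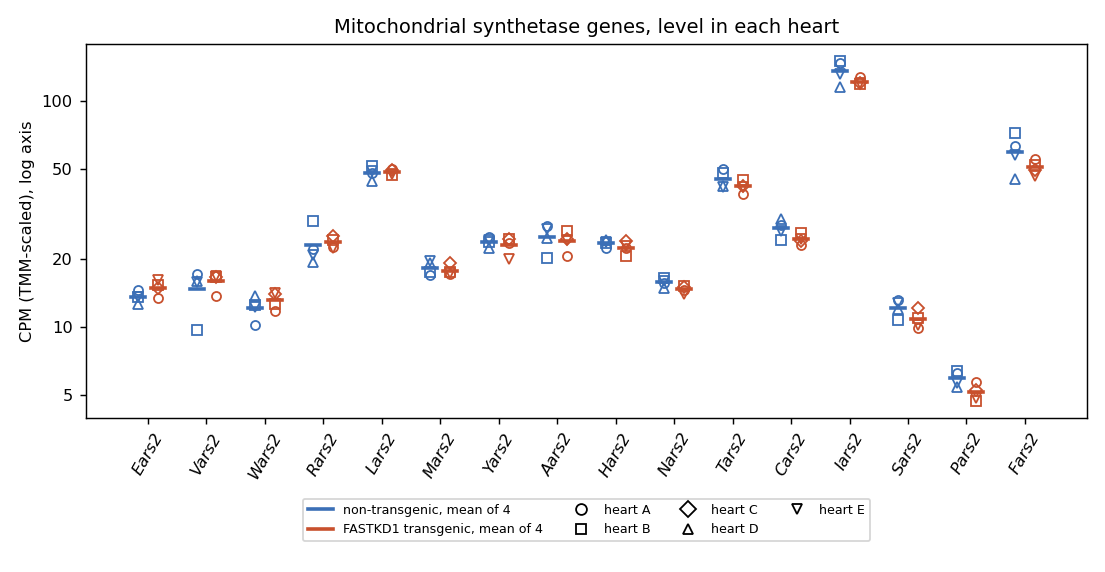
CPM in each of the 8 hearts (y axis, logarithmic) for the 16 mitochondrial synthetase genes (x axis), non-transgenic hearts in blue and transgenic hearts in red, with a marker shape for each heart letter and a line at each group mean. Both groups overlap in each of the 16 genes.

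Each cytosolic gene was then read against its mitochondrial counterpart inside the same library, as a log2 ratio that does not depend on how libraries are scaled. Of 17 such pairs, 13 had all 4 transgenic hearts above all 4 non-transgenic hearts, 0 had them all below, and 4 overlapped. Over single genes, all 4 transgenic hearts were above all 4 non-transgenic hearts in 12 of the 39 and in 4.58% of all tested genes, and all below in 0 of the 39 and in 2.8%. Eprs and Fars2 each enter 2 pairs, and Gars, Kars, Dars and Qars enter none. The ratios are given as values, with no test, and no share over other pairs of genes was computed beside them. In 9 of the 13 pairs the cytosolic gene had itself risen, so these pairs repeat that result.

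For Sars over Sars2 the log2 ratio was 2.31, 2.62, 2.22 and 2.18 in the non-transgenic and 3.61, 3.75, 3.50 and 3.79 in the transgenic hearts, a difference of means of 1.33, the largest of the 17. The pair Cars over Cars2 turned its sign, from -0.60, -0.56, -0.81 and -0.71 to 0.28, 0.50, 0.60 and 0.69, in CPM not divided by length. In CPM per kilobase the ratio of Cars to Cars2 was 0.370 in non-transgenic and 0.852 in transgenic hearts, so on that scale Cars2 stayed the higher of the pair in both groups. Yars over Yars2 went from a mean of -0.07 ± 0.22 to 1.13 ± 0.30 (SD, n = 4 each). Iars over Iars2 went from -0.87 ± 0.22 to 0.18 ± 0.25, with transgenic heart A alone of its group still below 0, at -0.18.

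The 9 pairs whose cytosolic gene rose differed by 0.93 to 1.33 between groups, with a median of 1.05, and in all 9 the groups did not overlap. Of the other 8 pairs, 4 did not overlap, those of Lars (difference 0.63), Tars (0.51), Vars (0.33) and Farsb (0.29). The log2 ratio of Vars to Vars2 was 0.41, 0.16, 0.40 and 0.37 in non-transgenic and 0.47, 0.74, 0.72 and 0.72 in transgenic hearts. In both genes of this pair non-transgenic heart B was the lowest of its group and transgenic heart A the lowest of its group. Wars over Wars2 differed by -0.04 and Rars over Rars2 by 0.06, with overlapping groups. Hars and Hars2, which start 197 bases apart on opposite strands and share 195 exon bases, differed by 0.13 and overlapped too.

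**Figure D4:**
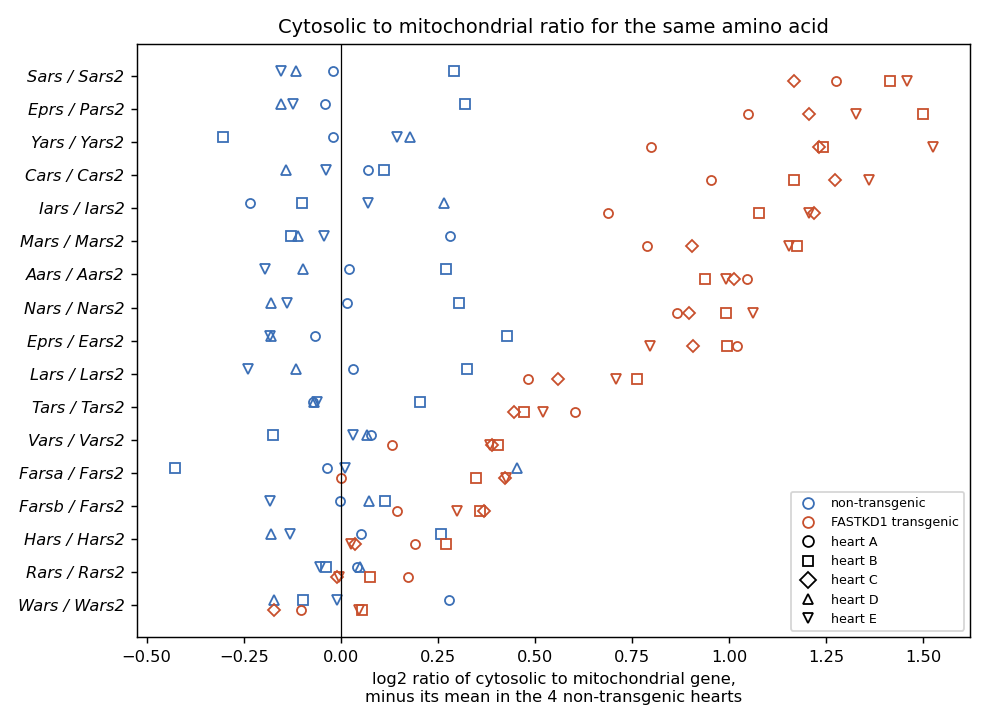
Log2 ratio of each cytosolic gene to its mitochondrial counterpart within a library, minus its mean over the 4 non-transgenic hearts (x axis), for the 17 pairs (y axis), with non-transgenic hearts in blue, transgenic hearts in red and a marker shape for each heart letter. The 9 pairs at the top, whose cytosolic gene rose, differ between groups by 0.93 to 1.33, and the 4 pairs of Farsa, Hars, Rars and Wars overlap.

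Summed over the 20 cytosolic genes, the level was 1305, 1478, 1129 and 1176 CPM in the non-transgenic and 1818, 2088, 1996 and 2011 CPM in the transgenic hearts. The mean went from 1272 ± 156 to 1978 ± 114 CPM (SD, n = 4 each), a ratio of 1.56, and the groups did not overlap. Over the 16 mitochondrial genes the sum was 529, 530.2, 461 and 498 CPM in the non-transgenic and 470.0, 478, 480.3 and 464 CPM in the transgenic hearts, with overlapping groups and a ratio of 0.937. These sums weight a gene by its abundance and carry no test.

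Levels of different genes were compared as CPM per kilobase of 1 transcript per gene, a scale on which reads of other exons still count. In non-transgenic hearts Kars was the highest of the 20 cytosolic genes at 53.7 ± 8.99 CPM per kilobase, then Dars at 41.2 ± 7.17 and Nars at 38.2 ± 7.42 (SD, n = 4), neighbours whose ranges over the hearts overlapped. Gars had rank 6 at 27.1 ± 1.54 CPM per kilobase. In transgenic hearts Gars had rank 1 at 69.1 ± 7.21 CPM per kilobase and Nars rank 2 at 68.2 ± 3.88, with overlapping hearts. Eprs followed at 62.4 ± 3.45, and Kars and Dars had ranks 4 and 5 at 51.8 ± 1.29 and 39.8 ± 1.11.

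Sars moved from rank 12 to rank 6, from 17.2 ± 1.49 to 38.5 ± 3.23 CPM per kilobase. Vars was the lowest of the 20 in both groups, at 4.54 ± 1.30 and 6.16 ± 1.06 CPM per kilobase. Among the 16 mitochondrial genes Fars2 (28.1 ± 5.39 and 23.98 ± 1.79), Iars2 (24.9 ± 2.96 and 22.2 ± 0.731) and Tars2 (18.9 ± 1.77 and 17.5 ± 1.01) were the highest in both groups in that order, and Mars2 the lowest. The rank of Mars2 rests on the longest transcript of the 16, at 11.29 kb. Not divided by length, its mean was 18.3 CPM in non-transgenic hearts, where Pars2 was the lowest at 5.91 CPM. Genes of the first 5 and last 6 mitochondrial ranks were the same in both groups.

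**Figure D5:**
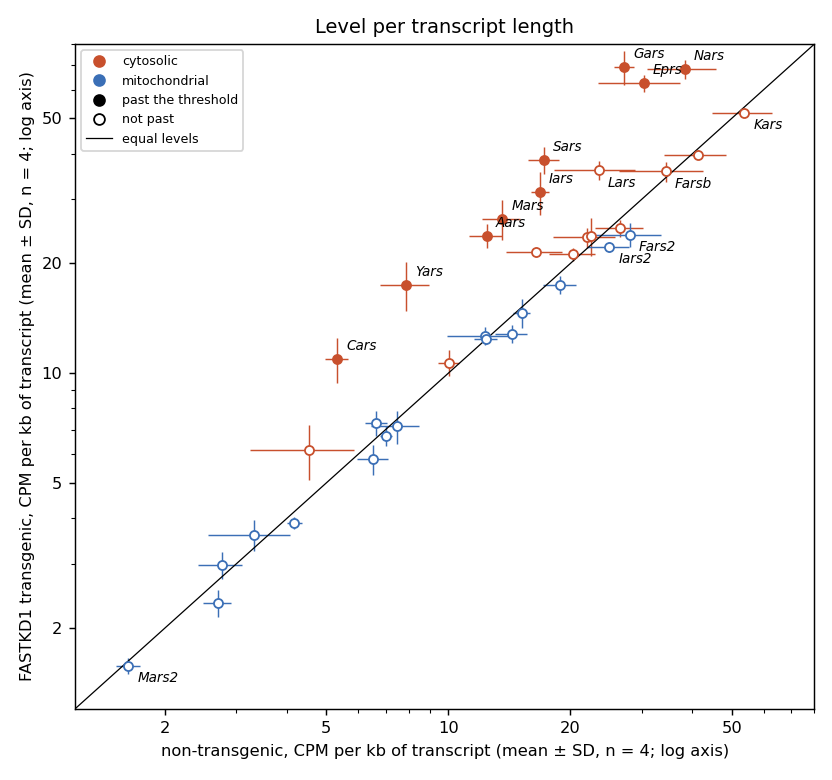
Mean level in CPM per kilobase of the 20 cytosolic (red) and 16 mitochondrial (blue) synthetase genes in transgenic hearts (y axis) against non-transgenic hearts (x axis), both axes logarithmic, with bars for the SD over 4 hearts, filled points for genes past the threshold and a line of equal levels. Gars goes from rank 6 to rank 1 among cytosolic genes and Kars from rank 1 to rank 4, while Fars2 is the highest mitochondrial gene in both groups.

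Lists of neighbouring functions were counted by the same test. Of 11 tested genes of other charging factors, among them Eef1e1 and the subunits of the mitochondrial glutamyl-tRNA amidotransferase, 0 passed in either direction by edgeR or DESeq2 and 0 had an unadjusted p under 0.05. The smallest p belonged to Sepsecs, which converts the phosphorylated serine on selenocysteine tRNA (13.6 ± 0.733 to 15.2 ± 0.694 CPM, log2 fold change 0.16, adjusted p = 0.593, edgeR), and Qrsl1, an amidotransferase subunit (log2 fold change -0.21, adjusted p = 0.608, edgeR). Of 48 tested genes of tRNA maturation and modification, 1 rose and 0 fell, a share of 2.08% against 1.01% of all tested genes, and 3 were higher at an unadjusted p under 0.05, where 5.37% of all tested genes were. That gene was Mettl1, the methyltransferase of the tRNA variable loop, at 7.32, 6.68, 8.08 and 8.37 CPM in non-transgenic and 11.3, 11.2, 11.6 and 11.1 CPM in transgenic hearts (log2 fold change 0.57, SE 0.10, adjusted p = 0.0197, edgeR). Its call was lost at an adjusted p of 0.01, on library totals, and without non-transgenic heart A or any of transgenic hearts B, C and E, and without the library labelled non-transgenic D and transgenic heart A together.

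Of 22 genes of RNA polymerase III, which transcribes tRNA, 0 passed in either direction, while 2 were higher at an unadjusted p under 0.05, where 5.37% of all tested genes were, and DESeq2 called 1. Without non-transgenic heart B edgeR called 1 as well. Polr3g had 9.30 ± 2.28 CPM in non-transgenic and 14.3 ± 1.99 CPM in transgenic hearts (SD, n = 4 each, adjusted p = 0.185, edgeR), and Polr3c had 21.7 ± 1.17 and 25.2 ± 1.09 CPM (adjusted p = 0.381, edgeR). Of 46 cytosolic translation factor genes 2 rose (4.35%, against 1.01% of all tested genes) and 0 fell, and 6 were higher at an unadjusted p under 0.05. DESeq2 called 3 of them higher, where it called 1.89% of all tested genes. Eef1a1, which encodes the elongation factor that brings charged tRNA to the ribosome, went from 682, 763, 619 and 559 CPM to 1069, 1061, 884 and 1029.6 CPM (0.62 on the log2 scale, adjusted p = 0.0314, edgeR). Eif3c, an initiation factor subunit, went from 189.9 ± 34.6 to 301 ± 14.6 CPM (0.66, adjusted p = 0.0353, edgeR). The number of that list that rose was 4 without non-transgenic heart B, 1 without transgenic heart C, 0 without any other single library, and 0 without the library labelled non-transgenic D and transgenic heart A together.

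Of 11 tested mitochondrial translation factor genes, 0 passed in either direction by edgeR or DESeq2, and 2 were lower at an unadjusted p under 0.05, where 5.38% of all tested genes were. All 11 had a log2 fold change below 0, with a median of -0.14, where 51.2% of all tested genes lay above 0. On library totals 10 of the 11 lay below 0, with a median of -0.06, where 67.3% of all tested genes lay above 0. The smallest p belonged to Gfm2, a factor of ribosome recycling (97.6 ± 17.2 to 79.8 ± 1.73 CPM, adjusted p = 0.422, edgeR), and Mrpl58, a peptide release factor of the mitochondrial ribosome (29.7 ± 4.07 to 24.8 ± 1.48 CPM, adjusted p = 0.439, edgeR). In both genes the groups overlapped.

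Markers of the cell types in a heart were read beside these changes. The 6 ventricular cardiomyocyte markers (Myh6, Myl2, Myl3, Tnnt2, Tnni3 and Actc1), of which 0 of 6 passed the test, summed to 62629 to 73536 CPM in non-transgenic and 51213 to 54193 CPM in transgenic hearts. All 6 were lower at an unadjusted p under 0.05, by log2 fold changes from -0.55 to -0.27, and in 4 of them all transgenic hearts lay below all non-transgenic ones, where 2.8% of all tested genes did. Erythroid markers, 0 of 4 past the test, summed to 356 to 803 CPM and 299 to 416 CPM, and all 4 were lower at an unadjusted p under 0.05, with log2 fold changes from -0.73 to -0.67. Endothelial, fibroblast, mural, macrophage and adipocyte markers, 0 of 4 past the test in each list, had overlapping sums. Acta2, the smooth muscle actin among the mural markers, was the 1 marker of these lists whose groups did not overlap, at 108, 173, 134 and 109 CPM in non-transgenic and 222, 259, 375 and 210.3 CPM in transgenic hearts (log2 fold change 1.03, SE 0.21, adjusted p = 0.0505, edgeR), and it did not pass the test. The part of cell composition in the rises was not tested, and the 4 skeletal muscle markers were not analysed here.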

How the data were processed

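RNA sequencing was done on 8 mouse hearts. The authors deposited unnormalized counts by Ensembl gene for each library, made with cutadapt 1.15 and TopHat2 on GRCm38 (mm10), per the submitters' processing notes. The counter, the annotation release and the strand of the kit are not given in the sources used here. Titles give each library its own heart. Symbols and coordinates come from GENCODE M21. Of the listed identifiers, 12 had no symbol.

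Counts were filtered with filterByExpr, scaled by TMM and tested with edgeR 4.0.16 in R 4.3.3 (quasi-likelihood F test, two-sided, Benjamini-Hochberg adjustment over 13226 genes, threshold 0.05). CPM use TMM library sizes, and log2 ratios use a prior count of 2. Intervals are at the 95% level of the fit. Each SE was worked back from the F statistic. Alternatives were other scalings, DESeq2 1.42.0, limma 3.58.1 (voom), other filters and thresholds, a block on title letters, and leaving out libraries. Leaving out the library labelled non-transgenic D and transgenic heart A together was chosen after seeing the data, as were the scalings and omissions tried on the summed levels. The fit was tested on simulated data.

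Members and gene lists were chosen with earlier results of these data known. One gene of the list of other charging factors is not reported here. Values in every heart are given for genes past the threshold and their counterparts. Of the others, those of the 3 smallest p and the 3 lowest log2 fold changes are named, and of each related list the genes past the threshold, or the 2 of smallest p. Other genes, among them Eif2ak4, Kars, Dars, the scaffold genes and the neighbours and overlapping genes, were named after their values were seen. Per-kilobase lengths are of 1 principal transcript per gene. Libraries of a group all differed beyond counting noise (chi-square per degree of freedom at least 19.7).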

Additional observations from a re-analysis of the deposited data

Results flagged for a closer look

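In 7 of 78 groups of 4 hearts, taken over the 39 genes and both genotypes, 1 heart lay apart from the other 3 by Dixon's criterion at the 95% level, where about 1 in 20 groups, or 3.9 of 78, do so by chance. Transgenic heart A was that heart in 4 of them. In it Yars stood at 39.05 CPM against 54.7 to 55.1 CPM in the other transgenic hearts, Vars at 18.9 CPM against 27.5 to 27.8 CPM, Vars2 at 13.7 CPM against 16.7 to 16.8 CPM, and Aimp2 at 8.60 CPM against 11.8 to 12.1 CPM. The same heart had the highest level of atrial markers, and the part of that in these values was not tested. Non-transgenic heart B had 9.70 CPM of Vars2 against 15.9 to 17.1 CPM in the others of its group. Non-transgenic heart A had 68.9 CPM of Iars against 75.8 to 77.0 CPM. Transgenic heart E had 45.1 CPM of Rars against 50.7 to 51.9 CPM.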

How the results depend on the processing

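The number of the 39 genes that rose was 9 to 12 when single libraries were left out, 8 with the replicate block (Mars and Nars not passing, adjusted p = 0.0541 and 0.0545, edgeR), 12 on library totals, 11 by DESeq2 and 10 at an adjusted p of 0.01. The number of mitochondrial synthetase genes past the threshold was 0 in both directions under each of these. Over all genes, 249 rose by DESeq2, and 159 fell by DESeq2, 9 at an adjusted p of 0.01, 106 without the library labelled non-transgenic D and transgenic heart A, and 9 to 72 without single libraries. Leaving out single libraries gave 0 to 1 genes that rose for tRNA maturation and for RNA polymerase III, and 0 to 4 for cytosolic translation factors. For tRNA maturation 0 rose on library totals, at 0.01, with the block and without the library labelled non-transgenic D and transgenic heart A. RNA polymerase III had 1 on library totals and 1 by DESeq2, and cytosolic translation factors 0 at 0.01, 0 with the block and 0 without both libraries. The summed mitochondrial level had a log2 ratio of -0.09, and -0.013 on library totals, a setting that moved the median of all genes by 0.071.

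Of 720 values of the 39 genes and Fastkd1 under alternatives, 680 kept direction and call, 5 gained and 4 lost a call, and 31 turned sign, all in genes that did not pass the test. With the replicate block these were Farsb (-0.043), Lars2 (-0.048), Rars2 (-0.054) and Aimp2 (-0.0098). Without both libraries they were Farsb (-0.032), Hars (-0.00026), Lars2 (-0.048) and Rars2 (-0.0042). On library totals they were Kars (0.037), Dars (0.040), Yars2 (0.027), Hars2 (0.0071), Mars2 (0.022) and Aars2 (0.0036), and with upper quartile scaling Lars2 (-0.0012). Without single libraries the log2 fold changes ran from -0.049 to 0.21 in Farsb, -0.0036 to 0.15 in Wars, -0.14 to 0.064 in Kars, -0.13 to 0.075 in Dars, -0.032 to 0.20 in Vars2, -0.040 to 0.041 in Lars2, -0.088 to 0.0035 in Yars2, -0.036 to 0.18 in Rars2, -0.15 to 0.0032 in Aars2 and -0.22 to 0.028 in Aimp1. The cause was not tested. The block used letters A, B and E, whose same-letter deviations correlated at 0.30, -0.08 and 0.36, so the letters were not taken as pairs, and not every heart correlated best with its own letter. With 4 hearts a group, changes of any size inside the 95% intervals given were not excluded. These intervals are not a limit of detection, and the smallest detectable change is not given here.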
